A study of Arabidopsis thaliana with 12 samples.

Results

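A set of 185 Arabidopsis thaliana genes had a lower signal in roots given arsenate, while their mean signal in hypoxic roots stayed near that of control roots. They were taken from 16550 genes tested, of which 14745 carry only a locus code as their symbol, such as AT4G12545, in the RefSeq annotation. A gene became a member when its mean log2 signal was at least 0.8 lower in arsenic than in control roots and its mean in hypoxia lay within 0.4 of control. All 3 arsenic arrays also had to lie below all 3 control arrays, and the control mean had to be at least 4. The combined treatment was not part of the selection.

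The arrays came from roots of Col-0 wild-type plants in hydroponic culture, taken on day 7 of treatment from plants 39 days old. The 4 groups of 3 arrays were combination (250 µM arsenate as Na2HAsO4 in hypoxic medium), arsenic (250 µM arsenate alone), hypoxia (hypoxic medium alone) and control (untreated). Within a group, the 3 arrays are independent biological replicates by the submitters' account, and the oxygen content of the hypoxic medium is not given in the sources used here. All values below are log2 signals, so a difference of -1 is a halving of the signal, and probe sets of different genes were not set against each other by level.

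Arsenate resembles phosphate and enters root cells through phosphate transporters, after which it can take the place of phosphate in metabolism or be reduced to arsenite, which binds thiols. Hypoxia limits respiration, and roots respond by shifting to fermentation and by saving energy. A locus code gives a gene's chromosome and its order there, and says nothing about what its product does.

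The lower signal in arsenic roots ranged from -4.79 to -0.80 over the 185 members, with a median arsenic minus control difference of -1.04 and quartiles of -1.27 and -0.89. A total of 100 members had at most 1/2 of the control signal and 8 had at most 1/4 of it. Their hypoxia minus control differences ran from -0.40 to 0.38, with a median of -0.09. The members were chosen by these measured values, which are given as a description, without a test. In whole roots, fewer cells of a type and less RNA per cell cannot be told apart.

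Since the combination arrays were not used to choose the members, the comparison of combination with hypoxia asks whether arsenate also went with a lower signal of these genes when the medium was hypoxic. Among all genes tested, 1.58% fell and 1.88% rose in that comparison (limma over all 12 arrays, Benjamini-Hochberg adjustment, threshold of 0.05 on the adjusted p). Of the 185 members, 36 fell (19.5%), 0 rose and 149 did not pass. At an unadjusted p under 0.05, 86 members (46.5%) were lower and 0 were higher, against 8.34% lower and 10.6% higher of all genes. The hypoxia arrays, unlike the combination arrays, had a part in the selection through their mean. The 896 locus-coded genes that met the arsenic and control limits at any hypoxia value had a median hypoxia minus control difference of -0.92. Keeping only those near control can favour genes that read high on the hypoxia arrays, which would lower combination minus hypoxia. The size of this effect on the counts and differences given here and below was not tested. The count of members that passed was 7 without combination replicate 2, 14 without combination replicate 3 and 13 without hypoxia replicate 2, and 4 when the fit held only the combination and hypoxia arrays.

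The direction was more even than the calls. The combination mean lay below the hypoxia mean for 172 members (93.0%), against 50.6% of all genes, and the median combination minus hypoxia difference was -0.55 over the members and -0.01 over all genes. All 3 combination arrays lay below all 3 hypoxia arrays for 79 members (42.7%), against 9.21% of all genes. No member had all its combination arrays above all its hypoxia arrays, against 11.1% of all genes. The 36 members that fell had differences from -4.15 to -0.70 with a median of -1.16, and in each of them the combination arrays lay wholly below the hypoxia arrays.

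**Figure D1:**
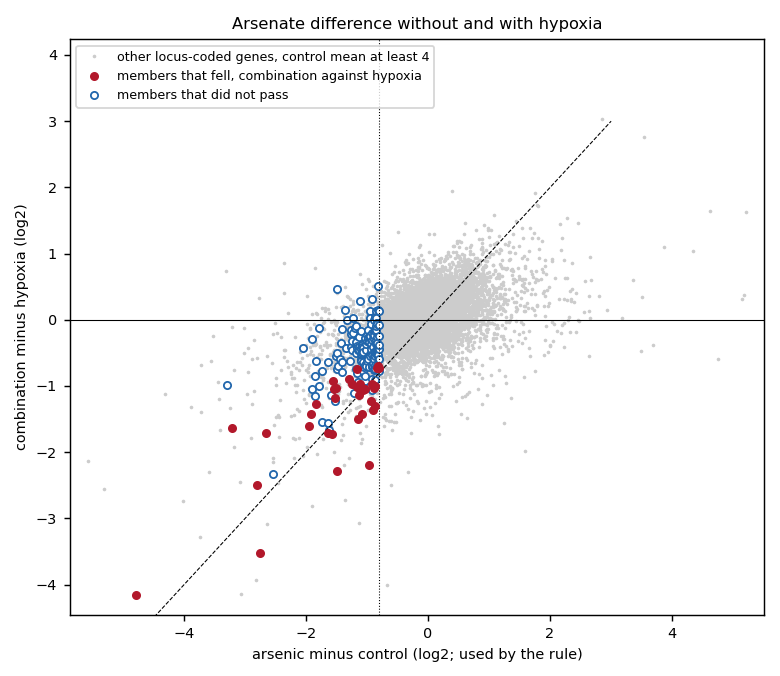
Each point is a locus-coded gene with a control mean of at least 4, placed by its arsenic minus control difference (horizontal, log2) and its combination minus hypoxia difference (vertical, log2). Filled points are the 36 members that fell in combination against hypoxia, open points the 149 members that did not pass, and small grey points other genes. The dotted line is the selection limit of -0.8, the dashed line marks equal differences, and most members lie below 0 on the vertical axis.

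AT4G12545 had the lowest arsenic minus control difference of all members. Its signal was 3.36, 2.99 and 3.62 in combination roots, 3.03, 2.98 and 2.71 in arsenic roots, 6.84, 7.88 and 7.70 in hypoxic roots and 7.37, 7.93 and 7.81 in control roots. The 6 arrays with arsenate were all low, whether or not the medium was hypoxic, and none of them overlapped the other 6. The arsenic minus control difference of -4.79 is a 27.8-fold lower signal. The arsenic mean lay below the first quartile of the signals on every array, and whether it stood above background was not tested. The combination minus hypoxia difference was -4.15 ± 0.26 (limma SE, 17.8-fold lower, limma adjusted p = 1.55e-05). This call and that of AT5G04730 were the only 2 of the 36 that passed in every alternative fit tried. Each value after ± here and below is the limma SE, from a variance per gene pooled over all groups, with n = 3 arrays in each. Where the hypoxia arrays of a gene varied more than its other groups, that SE understates their spread. For AT4G12545 the SD was 0.32 in combination and 0.56 in hypoxic roots.

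AT5G04730 read 7.19, 6.30 and 6.76 in combination roots, 6.13, 7.16 and 6.77 in arsenic roots, 9.09, 10.01 and 8.64 in hypoxic roots and 9.27, 9.45 and 9.77 in control roots. Its combination and arsenic arrays shared 1 range, none above 7.19, while no hypoxia or control array was below 8.64. The combination minus hypoxia difference was -2.49 ± 0.35 (5.64-fold lower; limma adjusted p = 0.00484), beside an arsenic minus control difference of -2.81.

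For AT4G15160 the signals were 4.42, 4.35 and 6.06 in combination roots, 5.45, 5.50 and 5.10 in arsenic roots, 6.68, 8.94 and 9.80 in hypoxic roots and 7.93, 8.22 and 8.19 in control roots. The hypoxia arrays spread widely, replicate 1 being far below the other two, yet even that array stood above all combination arrays. The gene was 11.5-fold lower in combination than in hypoxia (-3.53 ± 0.62; limma adjusted p = 0.0113), and it did not pass without combination replicate 2 (adjusted p = 0.0719) or without hypoxia replicate 2 (adjusted p = 0.0555).

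AT4G30450 showed a partial pattern. It read 6.85, 7.10 and 7.38 in combination roots, 5.03, 6.38 and 5.79 in arsenic roots, 8.38, 8.79 and 9.07 in hypoxic roots and 9.10, 8.89 and 8.87 in control roots. The combination arrays lay between the arsenic arrays and the others, overlapping neither. It fell in combination against hypoxia by 1.64 ± 0.29 on the log2 scale (3.12-fold lower; limma adjusted p = 0.0109; 0.0563 without combination replicate 2), while its arsenic minus control difference was -3.22.

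AT1G65845, with an arsenic minus control difference of -2.65, was likewise lower in both groups with arsenate. Its arrays read 9.62, 8.32 and 8.17 in combination roots, 7.83, 7.93 and 7.49 in arsenic roots, 10.64, 10.57 and 10.03 in hypoxic roots and 10.54, 10.60 and 10.09 in control roots. Hypoxia and control arrays covered nearly the same range, and combination replicate 1 was closest to them. The difference of -1.71 ± 0.32 in combination against hypoxia (3.27-fold lower) passed with a limma adjusted p of 0.0152, but not without combination replicate 2 (0.0922) or 3 (0.0661) or hypoxia replicate 2 (0.0688).

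AT1G61750 had 7.89, 6.69 and 6.64 in combination roots, 6.59, 6.96 and 5.90 in arsenic roots, 9.03, 8.74 and 8.26 in hypoxic roots and 8.92, 8.26 and 8.10 in control roots. AT1G35830 had 5.33, 4.98 and 4.91 in combination roots, 4.66, 5.02 and 4.70 in arsenic roots, 6.05, 6.57 and 6.89 in hypoxic roots and 6.81, 6.84 and 6.48 in control roots. In both genes every array with arsenate was below every array without it. In combination against hypoxia, AT1G61750 was 3.04-fold lower (-1.60 ± 0.36; limma adjusted p = 0.0332) and AT1G35830 was 2.69-fold lower (-1.43 ± 0.21; limma adjusted p = 0.00553). The first of these calls was lost without combination replicate 2 (0.150), combination replicate 3 (0.124), hypoxia replicate 1 (0.0597) or hypoxia replicate 2 (0.114). The call of AT1G35830 was also lost in at least 1 alternative fit.

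The remaining 5 of the 12 members with the lowest arsenic minus control differences did not pass in combination against hypoxia. AT5G26200 read 4.69, 5.62 and 5.71 in combination roots, 2.80, 3.41 and 2.60 in arsenic roots, 3.96, 7.28 and 7.74 in hypoxic roots and 6.02, 6.15 and 6.55 in control roots. Hypoxia replicate 1 was lower than every combination array, while the other two hypoxia arrays were above every control array, so its hypoxia mean near control hides an SD of 2.06. Its combination minus hypoxia difference of -0.98 ± 0.72 (limma adjusted p = 0.497) became -2.17 without hypoxia replicate 1 (adjusted p = 0.00418). The hypoxia arrays then left, 7.28 and 7.74, both lie more than 0.4 above the control mean of 6.24. Without replicate 1 the gene would thus not have met the hypoxia limit.

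AT5G14650 read 6.94, 6.43 and 7.49 in combination roots, 5.43, 8.02 and 6.40 in arsenic roots, 7.66, 9.26 and 10.92 in hypoxic roots and 8.95, 9.10 and 9.41 in control roots. Its combination arrays were all below its hypoxia arrays, but the hypoxia arrays spanned more than 3 log2 units. The difference was -2.33 ± 0.71 (limma adjusted p = 0.0952; 0.0155 without hypoxia replicate 1).

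By their group means, AT4G07820 and AT5G07080 were low in arsenic roots and nearer to control in combination roots. AT4G07820 read 4.47, 4.15 and 4.15 in combination roots, 2.21, 4.16 and 2.72 in arsenic roots, 4.33, 5.03 and 4.69 in hypoxic roots and 5.11, 4.88 and 5.24 in control roots. Arsenic replicate 2 of this gene lay among its combination arrays. Those were all below its control arrays, with a combination minus control difference of -0.82. AT5G07080 read 9.22, 8.87 and 8.34 in combination roots, 7.49, 8.14 and 7.09 in arsenic roots, 9.56, 9.03 and 8.74 in hypoxic roots and 9.79, 9.21 and 9.42 in control roots. Their combination and hypoxia arrays overlapped, with differences of -0.43 ± 0.37 for AT4G07820 (limma adjusted p = 0.575) and -0.30 ± 0.30 for AT5G07080 (limma adjusted p = 0.639).

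AT1G30260 had 6.36, 6.72 and 6.03 in combination roots, 4.96, 6.28 and 5.27 in arsenic roots, 6.99, 8.26 and 6.98 in hypoxic roots and 7.53, 7.22 and 7.47 in control roots. The combination arrays were all below the hypoxia arrays, by a mean of 1.04 on the log2 scale, and the difference of -1.04 ± 0.37 did not pass (limma adjusted p = 0.142).

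**Figure D2:**
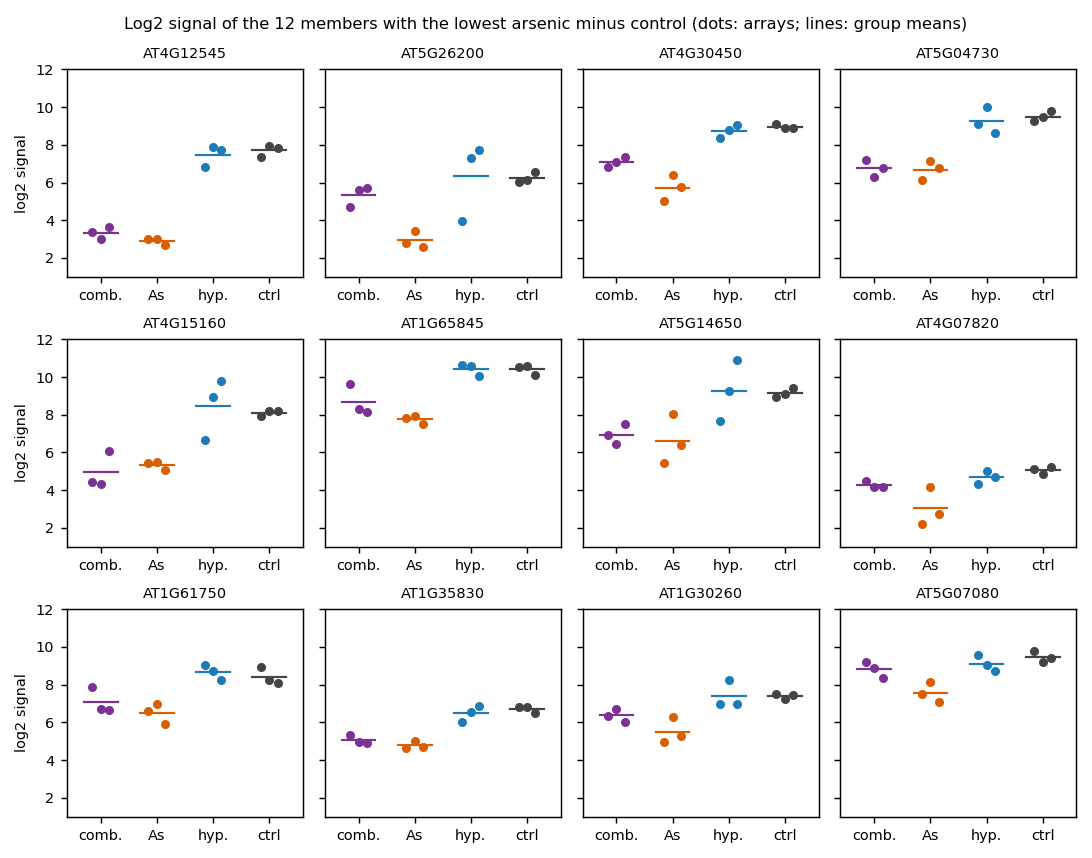
Log2 signal (vertical axis) of the 12 members with the lowest arsenic minus control differences, in combination (comb.), arsenic (As), hypoxia (hyp.) and control (ctrl) roots; each dot is 1 array and each line a group mean. AT4G12545 and AT5G04730 are low in both groups with arsenate, and the hypoxia dots of AT5G26200, AT4G15160 and AT5G14650 are widely spread.

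Some members with a smaller arsenic difference fell as far under the combined treatment. They are named here because they passed, that is, after their values were seen. AT5G55050 read 3.88, 3.26 and 3.37 in combination roots, 4.05, 4.09 and 3.86 in arsenic roots, 4.49, 6.52 and 6.34 in hypoxic roots and 5.25, 5.61 and 5.62 in control roots. AT3G45160 read 5.06, 5.27 and 5.92 in combination roots, 5.46, 6.98 and 6.53 in arsenic roots, 6.78, 7.69 and 8.36 in hypoxic roots and 7.22, 7.37 and 7.27 in control roots. For both, the combination arrays included the lowest of all 12, and hypoxia replicate 1 was the lowest of its group. AT5G55050 was 4.85-fold lower in combination than in hypoxia (-2.28 ± 0.40; limma adjusted p = 0.0113; 0.0705 without combination replicate 2) and AT3G45160 was 4.58-fold lower (-2.20 ± 0.41; limma adjusted p = 0.0141; 0.0770 without combination replicate 2). Their arsenic minus control differences were -1.49 for AT5G55050 and -0.96 for AT3G45160.

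AT4G29450 read 5.01, 4.22 and 4.42 in combination roots, 5.04, 4.07 and 4.40 in arsenic roots, 6.40, 6.70 and 5.75 in hypoxic roots and 5.99, 6.19 and 6.03 in control roots. Its 2 groups with arsenate covered almost the same range, below the others. It was 3.32-fold lower in combination than in hypoxia (-1.73 ± 0.29; limma adjusted p = 0.00826; 0.0523 without combination replicate 2).

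AT1G21000 had narrow groups, with 7.80, 7.74 and 7.68 in combination roots, 7.86, 8.01 and 7.89 in arsenic roots, 8.49, 8.93 and 8.88 in hypoxic roots and 8.92, 8.81 and 8.70 in control roots. AT1G54095 read 5.38, 5.80 and 5.40 in combination roots, 5.46, 5.49 and 5.45 in arsenic roots, 6.39, 6.58 and 6.29 in hypoxic roots and 6.68, 6.74 and 6.85 in control roots. Changes near 1 log2 unit passed in these genes, whose arrays with arsenate all lay below those without. The combination minus hypoxia difference was -1.03 ± 0.14 for AT1G21000 (limma adjusted p = 0.00484) and -0.89 ± 0.15 for AT1G54095 (limma adjusted p = 0.00806). Each of these calls was lost in at least 1 alternative fit.

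The other members that fell were lower in combination than in hypoxia by between 0.70 and 1.71 log2 units. Beside AT4G30460, described below, those with differences past -1.2 were AT4G23500 (-1.50), AT5G06270 (-1.42), AT4G08570 (-1.37), AT3G47980 (-1.30), AT1G23150 (-1.27) and AT5G46090 (-1.23). Differences between -1.2 and -1.0 belonged to AT3G12977 (-1.19), AT3G46800 (-1.13), AT4G36640 (-1.07), AT5G53110 (-1.04), AT5G54620 (-1.04), AT3G03280 (-1.03), AT5G44574 (-1.01) and, at the edge of that range, AT2G38500. Smaller ones were seen in AT5G59650 (-0.97), AT1G80450 (-0.97), AT3G61490 (-0.96), AT5G14940 (-0.93), AT2G16380 (-0.74), AT2G44600 (-0.73), AT3G03180 (-0.73), AT3G12290 (-0.73) and AT5G58660 (-0.70). None of these genes has an annotated name in the tables used here, so they are described by code alone.

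Calls were most frequent among the members with the lowest arsenic minus control differences, and occurred at every size. Of the 32 members with an arsenic minus control difference of at most -1.5, 14 fell in combination against hypoxia, as did 11 of the 68 between -1.5 and -1 and 11 of the 85 above -1. Across the 185 members, the arsenic minus control and combination minus hypoxia differences, which share no array, had a Pearson r of 0.644 and a Spearman rho of 0.376. Pearson r was 0.546 without AT4G12545. These correlations are across genes on the same arrays, which are not independent replicates, and are given as a description.

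Combination minus hypoxia was the lower of the pair of differences for 18 of the 185 members, and arsenic minus control the lower for 167. That order carries no test: the members were chosen for a low arsenic mean beside a control mean, so their arsenic minus control difference is large by selection.

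**Figure D3:**
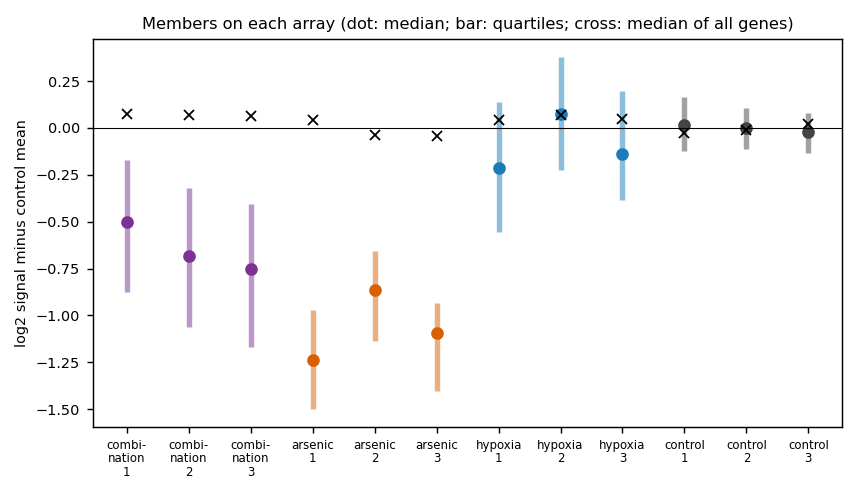
Median (dot) and quartiles (bar) of the log2 signal minus the control mean over the 185 members on each of the 12 arrays, with the median over all genes as a cross. The 3 combination arrays lie between -0.75 and -0.50 and the 3 arsenic arrays between -1.24 and -0.87, while hypoxia arrays lie between -0.21 and 0.07.

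The arrays of a group did not contribute equally. Relative to the control mean, the median member read -0.50, -0.68 and -0.75 on the combination arrays and -1.24, -0.87 and -1.10 on the arsenic arrays. It read -0.21, 0.07 and -0.14 on the hypoxia arrays and between -0.02 and 0.01 on the control arrays. Medians over all genes stayed between -0.04 and 0.08 on every array. Arsenic replicate 1 was the lowest arsenic array for 103 members, replicate 3 for 62 and replicate 2 for 20.

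Within the hypoxia group the members were more variable than genes in general. The median SD over 3 hypoxia arrays was 0.401 for the members and 0.232 for all genes. It was 0.267 and 0.207 in combination roots, 0.272 and 0.183 in arsenic roots, and 0.174 and 0.166 in control roots. Only 40 members had each of their hypoxia arrays within 0.4 of the control mean, and 31 had at least 1 hypoxia array more than 1 log2 unit from it. The 40 members had a median combination minus hypoxia difference of -0.44, and 7 of them fell. Of the 31 members, 5 fell.

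In combination roots set directly against control roots, 72 members (38.9%) kept a difference of at most -0.8, and 59 (31.9%) lay between -0.8 and -0.4. A further 52 members (28.1%) lay within 0.4 of control, on either side, and 2 (1.08%) lay more than 0.4 above it. Among all 9055 locus-coded genes with a control mean of at least 4, the shares in the same 4 ranges were 15.7%, 12.1%, 50.8% and 21.4%. The combination minus control differences of the members ran from -4.38 to 0.78 with a median of -0.63. This comparison shares the control arrays with the selection and was not tested. Of the 36 members that fell in combination against hypoxia, 32 were among the 72 and 4 among the 59.

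**Figure D4:**
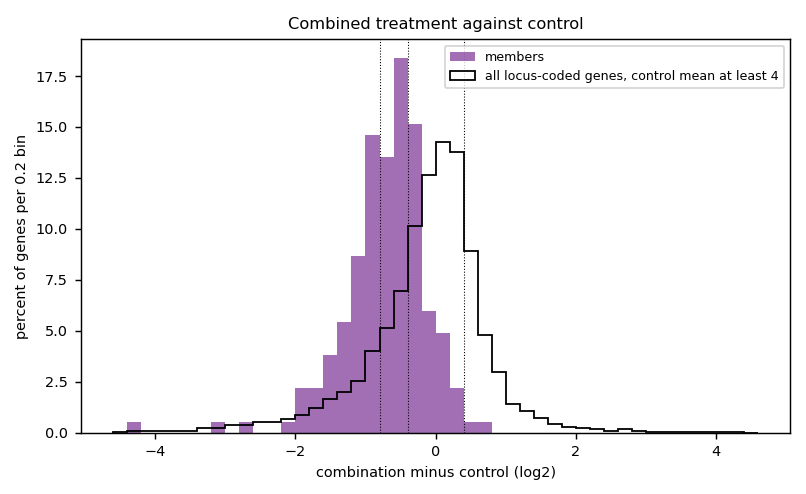
Percent of genes (vertical axis) per bin of 0.2 in the combination minus control difference (horizontal axis, log2) for the 185 members (filled) and all 9055 locus-coded genes with a control mean of at least 4 (outline). Dotted lines stand at -0.8, -0.4 and 0.4, and 38.9% of the members lie at or below the first of them.

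Against arsenic alone, 156 members had a higher mean in combination roots and 29 a lower one, with a median combination minus arsenic difference of 0.47. The arsenic arrays had chosen the members for low values, so this difference is described only. It was largest for AT5G26200, whose combination mean was 2.40 log2 units above its arsenic mean.

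A few members had combination signals at or above control. AT1G61840 read 8.63, 8.50 and 8.10 in combination roots, 6.42, 6.00 and 6.00 in arsenic roots, 9.09, 7.39 and 7.37 in hypoxic roots and 7.82, 7.56 and 7.51 in control roots. AT1G09460 read 8.80, 8.42 and 8.10 in combination roots, 7.05, 6.65 and 6.71 in arsenic roots, 8.68, 8.12 and 7.67 in hypoxic roots and 8.19, 7.92 and 7.66 in control roots. In both genes the arsenic arrays alone were low, and these were the 2 members more than 0.4 above control in combination roots. The combination minus hypoxia difference was 0.46 ± 0.36 for AT1G61840 (limma adjusted p = 0.533) and 0.28 ± 0.25 for AT1G09460 (limma adjusted p = 0.588). Without hypoxia replicate 1, AT1G61840 was 1.03 higher in combination than in hypoxia (adjusted p = 0.0128).

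AT3G49744 had the highest combination minus hypoxia difference. It read 5.23, 6.67 and 6.42 in combination roots, 4.65, 5.26 and 4.82 in arsenic roots, 5.02, 5.48 and 6.29 in hypoxic roots and 5.65, 5.83 and 5.71 in control roots. The combination arrays overlapped both hypoxia and control arrays, and the difference of 0.51 ± 0.36 did not pass (limma adjusted p = 0.48). AT3G13980 read 7.00, 6.83 and 6.48 in combination roots, 5.75, 5.38 and 5.46 in arsenic roots, 6.44, 6.51 and 6.41 in hypoxic roots and 6.19, 6.71 and 6.47 in control roots. Its hypoxia arrays lay close together, and its combination minus hypoxia difference was 0.31 ± 0.18 (limma adjusted p = 0.368).

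AT1G33440 is NPF4.4 in RefSeq, of a plant family of nitrate and peptide transporters. It read 7.07, 6.62 and 6.92 in combination roots, 5.82, 6.13 and 5.87 in arsenic roots, 6.91, 6.94 and 7.54 in hypoxic roots and 6.77, 6.71 and 6.87 in control roots. Combination and control arrays overlapped, and all arsenic arrays lay below every other array. Its combination minus hypoxia difference of -0.26 ± 0.19 did not pass (limma adjusted p = 0.487). It was singled out for its RefSeq name, after its values were seen.

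Several members lay next to each other. In the RefSeq order of protein-coding genes (assembly TAIR10.1), 3 pairs of members had no gene between them and 8 further pairs had 1 to 4 genes between them. Such pairs were not counted in other gene sets of this size, so whether the members cluster was not tested. In the pair of AT4G30450 and AT4G30460, the second gene read 5.15, 5.23 and 5.25 in combination roots, 4.93, 6.31 and 5.40 in arsenic roots, 6.76, 6.56 and 7.45 in hypoxic roots and 7.24, 7.30 and 7.03 in control roots. Both genes had all arrays with arsenate below all arrays without it. AT4G30460 was 3.27-fold lower in combination than in hypoxia (-1.71 ± 0.30; limma adjusted p = 0.0109; 0.0547 without combination replicate 2), and AT4G30450, given above, fell by 1.64 on the log2 scale. The next gene, AT4G30470, had an arsenic minus control difference of 0.80.

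In the pair of AT1G61750 and AT1G61760, the second gene read 5.32, 5.24 and 5.55 in combination roots, 4.91, 5.48 and 5.28 in arsenic roots, 5.74, 6.55 and 5.70 in hypoxic roots and 6.36, 6.25 and 6.37 in control roots. Its combination arrays were all below its hypoxia arrays, and the difference of -0.63 ± 0.22 did not pass (limma adjusted p = 0.141). The gene before the pair, AT1G61740, was low with either treatment, with differences from control of -1.99 in arsenic and -1.83 in hypoxia. The gene after it, AT1G61770, had 0.01 in arsenic and -0.33 in hypoxia.

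The third adjacent pair, AT5G40450 and AT5G40460, had arsenic minus control differences of -1.01 and -1.14. AT5G40450, the longest member gene, read 10.81, 10.38 and 10.39 in combination roots, 9.40, 10.31 and 9.63 in arsenic roots, 10.54, 10.73 and 10.98 in hypoxic roots and 10.78, 10.78 and 10.80 in control roots. AT5G40460 read 5.27, 5.42 and 4.96 in combination roots, 4.22, 4.77 and 4.71 in arsenic roots, 5.60, 5.93 and 5.36 in hypoxic roots and 6.06, 5.83 and 5.22 in control roots. Combination and hypoxia arrays overlapped in both, and the pair's combination minus hypoxia differences were -0.23 and -0.42.

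Between the 8 looser pairs lay 17 genes with a measured row, 6 of them with an arsenic minus control difference of at most -0.8. Each of the 6 was also low in hypoxia, which kept it out of the set; AT5G01740, for example, had -3.19 in arsenic and -2.36 in hypoxia. This gene was named after its values were seen.

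**Figure D5:**
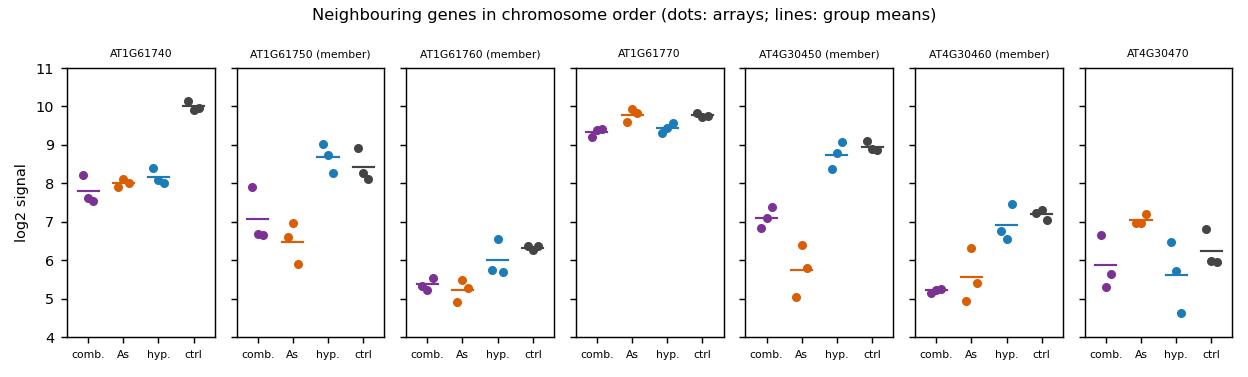
Log2 signal (vertical axis) of genes in chromosome order around 2 adjacent member pairs, in combination (comb.), arsenic (As), hypoxia (hyp.) and control (ctrl) roots; dots are arrays and lines group means. The 4 members are lower in both groups with arsenate, AT1G61740 is low in all 3 treated groups, and the arsenic arrays of AT1G61770 overlap its control arrays.

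What the members share beyond the selection was looked at only for signal level, gene type, length, transcripts and chromosome. Their functions and sequences were not compared. Their control means ran from 4.20 to 11.3 with a median of 6.87, in a range whose lower end the selection fixed. All 185 were protein coding in RefSeq. Their median gene length was 1914 bp, from 174 bp (AT3G49744) to 11239 bp (AT5G40450), against 1872 bp for all locus-coded genes. A single transcript was listed for 66.5% of the members and 63.6% of all locus-coded genes. They made up between 1.11% (chromosome 2) and 1.48% (chromosome 5) of the locus-coded genes of a chromosome.

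At the dim end, 4 members had an arsenic mean below 3.06, the lowest first quartile of any array, and 1 had such a combination mean. The values hold no detection call, so whether such a signal stood above background was not tested. AT4G12545, AT5G26200 and AT4G07820 were among the 4.

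The selection limits cut through a continuous range of values. Just inside the arsenic limit were AT5G48940, AT3G12290 and AT2G34585, each at -0.80, and just outside it AT5G10750 at -0.80, AT2G25735 at -0.79 and AT4G37180 at -0.79. At the lower hypoxia limit AT1G66180 (-0.40), AT5G60580 (-0.40) and AT2G18196 (-0.39) were inside, and AT1G65510, AT5G24890 and AT1G51870, each at -0.40, were outside. At the upper one AT4G23500 (0.38), AT4G16920 (0.36) and AT4G15160 (0.36) were inside, and AT5G39471 (0.40), AT4G27652 (0.42) and AT5G43540 (0.42) outside. The lowest control means inside were those of AT4G21910 (4.20), AT4G30662 (4.29) and AT2G34320 (4.32), and the highest outside those of AT3G47180 (3.96), AT5G54330 (3.55) and AT3G46810 (3.53). A further 12 locus-coded genes met every limit but had arsenic arrays that overlapped the control arrays.

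Of the members at these limits, AT3G12290 and AT4G23500 fell in combination against hypoxia. AT3G12290 read 7.86, 7.45 and 7.46 in combination roots, 7.47, 7.64 and 7.67 in arsenic roots, 8.41, 8.29 and 8.25 in hypoxic roots and 8.42, 8.35 and 8.43 in control roots. AT4G23500 read 6.76, 6.42 and 6.17 in combination roots, 6.35, 6.55 and 6.35 in arsenic roots, 7.22, 7.66 and 8.97 in hypoxic roots and 7.55, 7.68 and 7.48 in control roots. The arrays with arsenate lay below those without it in both genes. The differences were -0.73 ± 0.14 for AT3G12290 (limma adjusted p = 0.0178; 0.101 without combination replicate 2) and -1.50 ± 0.33 for AT4G23500 (limma adjusted p = 0.0320; 0.127 without combination replicate 2).

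The same limits applied to the 1805 genes that have a proper symbol gave 16 genes, 3 of which fell in combination against hypoxia (18.8%), with a median difference of -0.57. Those that fell were TRI (-1.45 ± 0.21; limma adjusted p = 0.00544), scpl20 (-1.44 ± 0.29; adjusted p = 0.0189) and psbJ (-0.64 ± 0.16; adjusted p = 0.0439), the last a chloroplast-encoded photosystem II gene. They were named after their values were seen. The locus-coded genes that were low with either treatment alone numbered 467, of which 39 fell (8.35%), with a median of -0.36. The 315 that were low in hypoxia but not in arsenic had 2 falls and 16 rises, and a median of 0.23. Both sets, the 467 and the 315, were chosen for low values on the hypoxia arrays, which can raise combination minus hypoxia. Locus-coded genes that met the arsenic and control limits at any hypoxia value, members included, numbered 896. Of these, 120 fell (13.4%), with a median of -0.43. Their combination mean lay below the hypoxia mean in 86.8%, and all combination arrays lay below all hypoxia arrays in 31.8%. A fall in this comparison was thus not particular to the members. These shares are set beside the 19.5% of the members as a description, and the differences between the sets were not tested.

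Root identity could be checked on few genes. Of 23 root markers 4 were measured, and of 14 green tissue markers 2. The 4 root markers were PYK10, EXPA7, EXPA18 and XTH26, and they do not stand for root identity as a whole. The mean log2 signal over the 4 root markers was 5.48 to 5.95 on the combination arrays, 6.81 to 7.08 on the arsenic arrays, 5.83 to 6.85 on the hypoxia arrays and 8.08 to 8.38 on the control arrays. EXPA7, a root hair expansin, averaged 5.01 in combination, 7.13 in arsenic, 5.38 in hypoxia and 8.10 in control roots. The 4 markers were thus lower in every treated group, hypoxia included. The members' median near control in hypoxia was fixed by the selection, so it is no contrast to the markers. The 2 green tissue markers averaged 3.88 to 4.74 in combination, 4.15 to 4.27 in arsenic, 4.49 to 4.68 in hypoxia and 4.30 to 4.69 in control roots. That average joins genes that went opposite ways. PSAN averaged 3.04 in combination, 3.00 in arsenic and 3.27 in hypoxia, below 3.76 in control roots. RCA averaged 5.72 in combination, 5.40 in arsenic and 5.94 in hypoxia, above 5.31 in control roots. Whether shifts in cell types have a part in the members' lower signal was not tested.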

How the data were processed

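The authors deposited log2 signals per probe set, made with RMA per the submitters' processing notes, a method that corrects background, equalizes the distributions of arrays and summarizes probes. The notes also list Transcriptome Analysis Console 3.1 and 2 versions of Affymetrix Expression Console, 1.4 and 1.4.1. The genome build behind the probe sets is not given in the sources used here, so no coordinates are printed. The values were used as deposited, and array number and spread set the precision.

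Of 38408 rows, 16722 named 1 gene in the probe annotation, 759 named several and 20927 were not listed there. The row with the highest mean was kept for each of 146 genes with several rows, which left 16550 genes. RefSeq (TAIR10.1) matched 16574 of the rows by gene identifier, all 185 members included, and gave names, gene lengths and gene order. Related genes can bind each other's probes.

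A model with 1 mean per group was fitted to all 12 arrays with limma 3.58.1 under R 4.3.3 and its moderated (eBayes) variance, with two-sided tests and Benjamini-Hochberg adjustment over 16550 genes. Only combination against hypoxia was tested, since the combination arrays had no part in the choice of members. The hypoxia arrays did have a part, so the test of the members is not free of the selection. In simulated data for that comparison with 16550 genes, 5, 36, 49 and 50 of 50 genes changed 1.5-, 2-, 4- and 8-fold were recovered, and 4 of 16350 unchanged genes were called. The simulation gave each gene normal values with 1 SD shared by all 4 groups. The members' median SD was 0.401 in hypoxia and 0.174 in control, so the simulated counts need not hold for them.

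The members and lists were chosen with earlier results of these data known. Genes were named by rule: the 12 lowest arsenic minus control differences, the 4 lowest and 4 highest combination minus hypoxia differences, 3 genes on either side of each limit, and up to 6 adjacent members. All 36 that fell were added later. Function classes planned from gene descriptions held 0 members, since the tables carry only synonyms. Alternatives were a replicate block, the 6 arrays compared alone, re-centring, quantile normalization again, a variance trend, array weights, a minimum mean of 4, row averaging, and leaving out each array. Arrays correlated at 0.972 to 0.991 within groups and 0.924 to 0.982 between them, and no array was left out of the reported results.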

Additional observations from a re-analysis of the deposited data

How the results depend on the processing

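The median combination minus hypoxia difference of the members stayed between -0.67 and -0.47 in every alternative. The 36 calls were less stable, since 34 were lost in at least 1 alternative. With only the combination and hypoxia arrays, 4 members and 30 genes in all passed, against 36 and 573. Leaving out single combination or hypoxia arrays gave 7 to 53 members and 101 to 1000 genes. Without combination replicate 1, 2 or 3 the members were 45, 7 and 14 (genes 1000, 101 and 194), and without hypoxia replicate 1, 2 or 3 they were 53 (52 lower and 1 higher), 13 and 26 (genes 888, 184 and 412). The cause was not tested. Adding the replicate block gave 34 members and 592 genes. Same-numbered combination and hypoxia arrays correlated in their deviations from group means with r of 0.305, -0.0789 and 0.292, and not every array correlated best with its own number, so the numbers were not taken as pairs. Re-centring gave 39 members and moved the split of all genes to 311 lower and 187 higher, and quantile normalization gave 41 members and 336 lower and 252 higher, against 262 lower and 311 higher. Among the members named in the text, AT5G48940 turned its sign, from a difference near 0, to 0.0164 with array weights, 0.0475 without combination replicate 1 and 0.0251 without hypoxia replicate 1 (range -0.193 to 0.0475 over the arrays left out singly).

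Membership moved with the limits. An arsenic limit of -1 left 100 members and a hypoxia limit of 0.2 left 82. Re-centred arrays gave 223 members, 147 of them shared with the 185, and quantile normalization gave 209 with 161 shared. Leaving out single arsenic, hypoxia or control arrays, an alternative chosen after seeing the data, gave 158 to 243 members.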
